A study of Mus musculus with 20 samples.

Results

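The genes described here are 10 genes tied to lymphocyte quiescence, chosen by symbol and matched to their mouse Ensembl gene identifiers: the forkhead factors Foxo1, Foxo3 and Foxo4, the Krüppel-like factors Klf2, Klf3 and Klf13, the antiproliferative genes Btg1, Btg2 and Tob1, and the pocket protein gene Rbl2. All 10 were among the 56239 genes counted, and 9 of them were among the 16601 genes with enough counts to be tested, since Klf3 fell below the minimum. The cells are B3, a line of mouse pre-B character that was first derived from a lymphoma. They carry IKZF1 (Ikaros) fused to the ERt2 domain, brought in with a retrovirus that also marks cells with GFP, by which they were sorted. The ERt2 domain holds the fusion protein outside the nucleus until 4-hydroxytamoxifen (4-OHT) is added. RNA bound to chromatin, which is rich in nascent transcripts, was sequenced in untreated cells (0 h) and at 30 min and 1, 2, 6, 12, 15, 18, 21 and 24 h of 500 nM 4-OHT, with 2 libraries at each of the 10 time points. The endogenous Ikzf1 gene was not removed in any group as far as the labels say, and cells without the fusion and cells given vehicle were not analysed here, so that IKZF1, 4-OHT and time in culture cannot be told apart. The comparisons ask when, after IKZF1 enters the nucleus, transcription of these genes changed, and by how much.

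Resting lymphocytes hold back from dividing through an active transcriptional program. FOXO factors are kept out of the nucleus by AKT phosphorylation when PI3K signalling is high, and when it drops they activate cell cycle inhibitors, Il7r and the recombination-activating genes in B cell precursors. KLF2 and its relatives restrain cycling and set homing in lymphocytes, BTG and TOB proteins bind the CCR4-NOT deadenylase and speed the decay of mRNA, and the pocket protein p130, the product of Rbl2, occupies E2F sites with the DREAM complex in resting cells.

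The libraries held 33296158 to 46868954 counts, with a median of 40943260. Levels are given as CPM, the counts of a gene scaled to a common library size, after TMM scaling of the library totals, and reads over introns are included in them. Of the 8 pre-B markers, 7 were detected in these cells and the summed level of the list ran from 7715 to 16062 CPM, against at most 0.731 CPM for the T cell, 1.62 CPM for the myeloid and 0.654 CPM for the erythroid list. Rag1 was at 0 counts in every library. Libraries of the same time point differed more at 12, 18, 21 and 24 h (chi-square per degree of freedom 9.95, 14.9, 4.78 and 2.58) than at the other time points (at most 1.77). In these bulk libraries, a change in the share of cells that transcribe a gene and a change in transcription per cell cannot be told apart.

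Most of the genes rose. At 24 h, 8 of the 9 tested genes were higher than at 0 h at an adjusted p under 0.01 (here called passed), beside 35.4% of all genes tested, and none passed as lower, beside 36.1%. Foxo1, Foxo4, Btg1, Btg2 and Tob1 were also more than 2-fold higher (called), which makes 5 of 9, beside 20% of all genes. The median log2 fold change of the 9 was 1.80, against -0.01 for all genes tested. At 30 min none of the 9 was called higher, beside 0.0542% of all genes, and 1 passed in each direction, beside 3.7% higher and 4.74% lower. At 1 h, Tob1 alone was called, beside 2.33% of all genes, while 4 passed as higher and Foxo3 passed as lower, beside 19.2% and 17.1%. At 2 h none was called, beside 6.25%, with again 4 passed as higher (23.9%) and Foxo3 as lower (23.8%). The called set grew to Foxo1, Foxo4, Btg2 and Tob1 at 6 h (10.9%) and was 4 at 12 h (13.2%). It was 5 at 15 h (15.3%), 18 h (19.1%) and 21 h (20.1%), with Btg1 as the addition. With library totals as the only scale, the median of all genes fell by 0.26 on the log2 scale at 24 h and 2603 genes were called higher and 4260 lower, against 3323 and 3329 with TMM, and the count of members called was again 5. On that scale Klf13 no longer passed at 24 h (adjusted p = 0.0429 by edgeR). Over all 9 induced time points together, 5 of 9 changed more than 2-fold and passed, beside 51.9% of all genes tested, a share near the background.

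**Figure D1:**
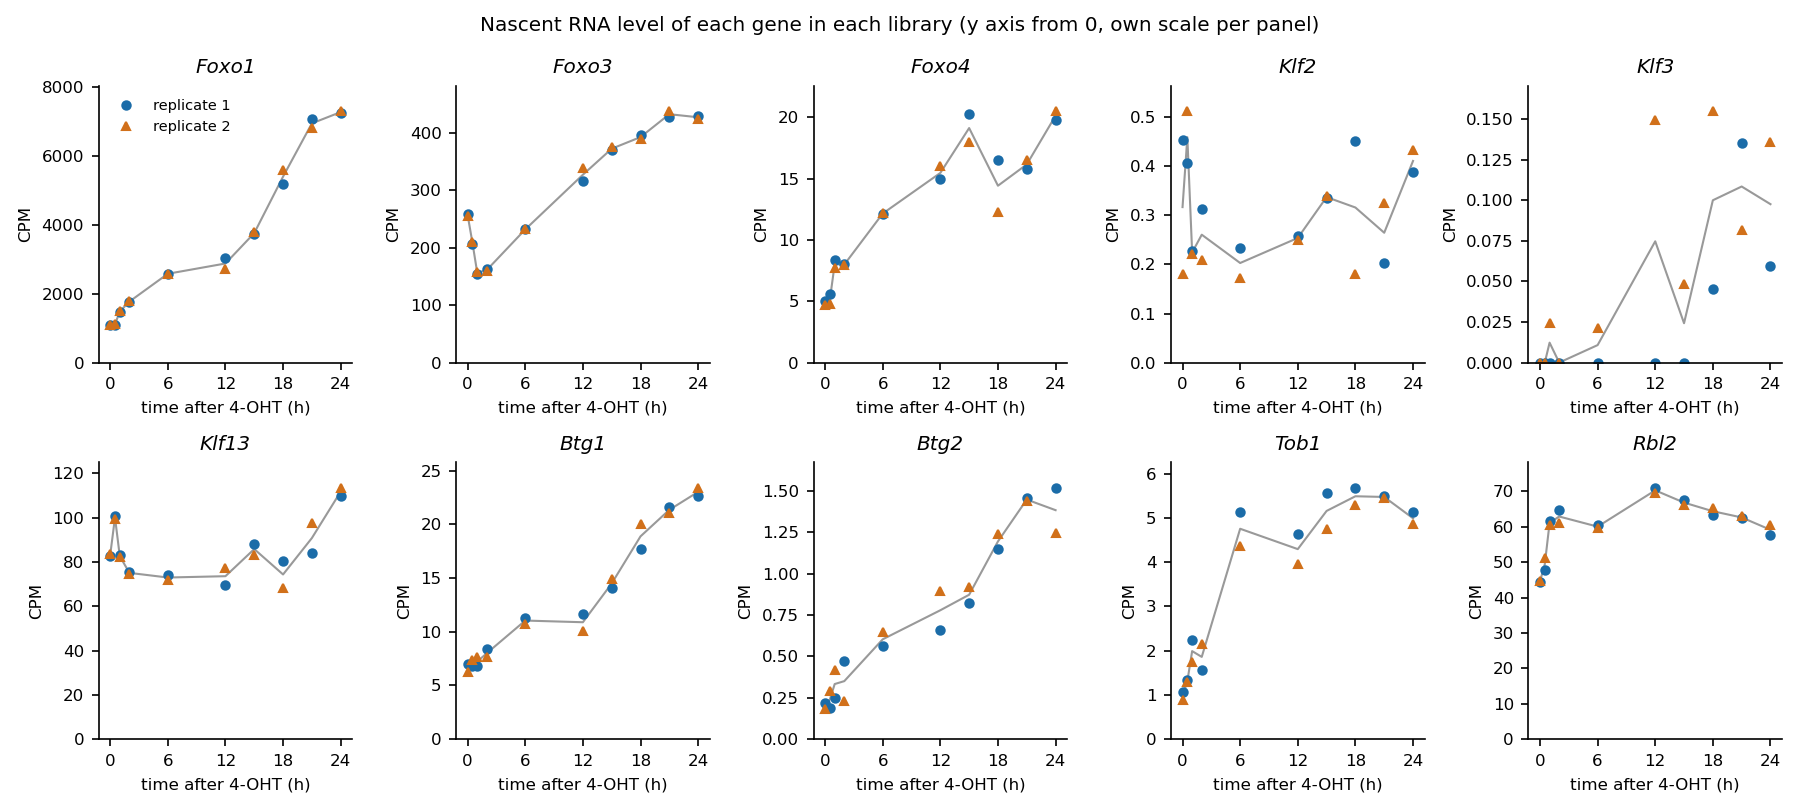
Level of each of the 10 genes in CPM (vertical axis, from 0, with its own scale in each panel) against hours after 4-OHT (horizontal axis). Circles are replicate 1, triangles replicate 2 and the line joins their means. Foxo1 climbs from 1 h to 24 h, Foxo3 dips at 1 and 2 h before it rises, and Klf2 and Klf3 stay under 0.6 CPM.

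**Figure D2:**
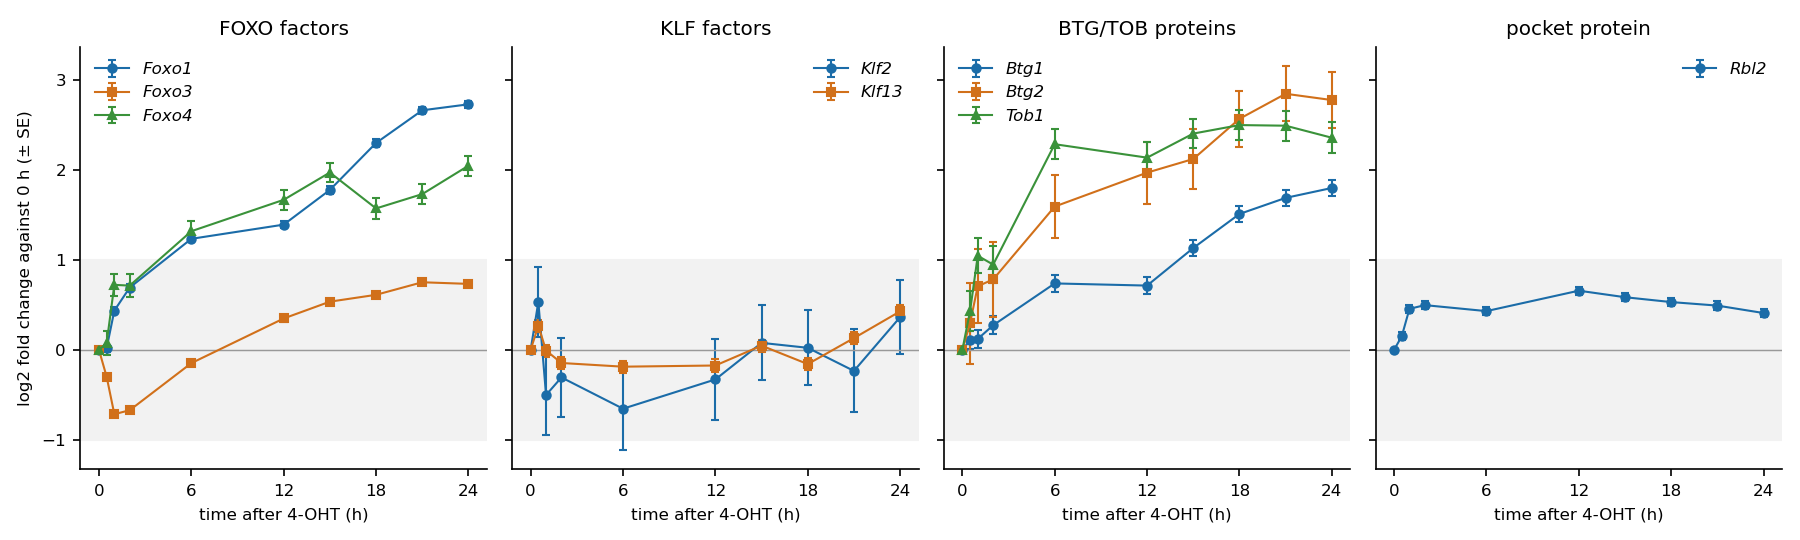
log2 fold change against 0 h with its standard error (vertical axis) against hours after 4-OHT (horizontal axis) for the 9 genes tested, in panels by role. The grey band is a change of less than 2-fold. By 24 h Foxo1, Foxo4, Btg1, Btg2 and Tob1 lie above the band and Foxo3, Klf2, Klf13 and Rbl2 within it.

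Foxo1, the main FOXO factor of B cell precursors, had the highest level per kb of the 10 at 0, 2 and 24 h and rose throughout the time course. Its gene spans chr3:52268336-52353221 on the plus strand of GRCm38, of which 10.2% is exon. Given as replicate 1/replicate 2, Foxo1 stood at 1095/1096 CPM at 0 h, 1100/1119 at 30 min, 1481/1483 at 1 h, 1765/1774 at 2 h, 2573/2581 at 6 h, 3022/2728 at 12 h, 3720/3792 at 15 h, 5195/5595 at 18 h, 7071/6809 at 21 h, 7241/7295 at 24 h. Both libraries lay above both 0 h libraries at each of the 9 induced time points, although the difference at 30 min (log2 fold change 0.02, SE 0.0396) did not pass. By edgeR's quasi-likelihood test the log2 fold change was 0.44 at 1 h (adjusted p = 7.1e-09), 0.69 at 2 h (adjusted p = 2.46e-12), 1.23 at 6 h (adjusted p = 9.59e-17) and 2.73 ± 0.042 (SE) at 24 h (adjusted p = 8.82e-23), a 6.64-fold rise. Each step passed from 30 min to 21 h, including 0.16 from 6 to 12 h and 0.52 from 15 to 18 h, and the last, from 21 to 24 h (0.07, adjusted p = 0.271), did not. At 12 h the libraries differed from each other (3022 and 2728 CPM), so the small step from 6 to 12 h is less certain. Foxo1 crossed the midpoint of its 24 h change at 15.9 and 15.7 h in the replicates, by linear interpolation. The share of all counts that fell on this gene went from 0.115% and 0.114% at 0 h to 0.638% and 0.635% at 24 h.

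Foxo3, the FOXO factor closest to Foxo1 in level, first fell and then rose. It lies at chr10:42181841-42276755 on the minus strand, 7.98% of it exon. Foxo3 stood at 259/255 CPM at 0 h, 207/211 at 30 min, 155/158 at 1 h, 162/160 at 2 h, 232/232 at 6 h, 316/339 at 12 h, 370/376 at 15 h, 397/389 at 18 h, 428/438 at 21 h, 430/425 at 24 h. The libraries at 30 min, 1, 2 and 6 h all lay below those at 0 h, and all later libraries lay above them. The fall had passed by 30 min (log2 fold change -0.30 ± 0.0352, adjusted p = 3.22e-06), was -0.72 at 1 h (adjusted p = 3.88e-13) and -0.67 at 2 h (adjusted p = 6.39e-13), and was never over 2-fold. From 2 h to 24 h Foxo3 rose 2.65-fold (log2 fold change 1.40, SE 0.0358, adjusted p = 5.42e-19), and at 24 h it was 1.66-fold above 0 h (0.73, adjusted p = 2.13e-14). Foxo3 was the only one of the 9 that passed in opposite directions against 0 h at 2 h and at 24 h.

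Because the ratio of 2 genes within a library does not depend on how libraries are scaled, it shows the divergence of Foxo1 and Foxo3 directly. Foxo1 held 4.23 and 4.29 counts per Foxo3 count at 0 h, 5.32/5.31 at 30 min, 9.57/9.36 at 1 h, and by 2 h had come to 10.9/11.1. The ratio was then 11.1/11.1 at 6 h, 9.57/8.04 at 12 h, 10.1/10.1 at 15 h, and reached 16.8/17.2 at 24 h. The ratio thus rose in the first 2 h, when Foxo3 lay below its 0 h level. It changed little to 6 h, was lower at 12 h, and exceeded its earlier values after 15 h. Foxo1 and Foxo3 were both higher at 24 h than at 2 h.

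**Figure D3:**
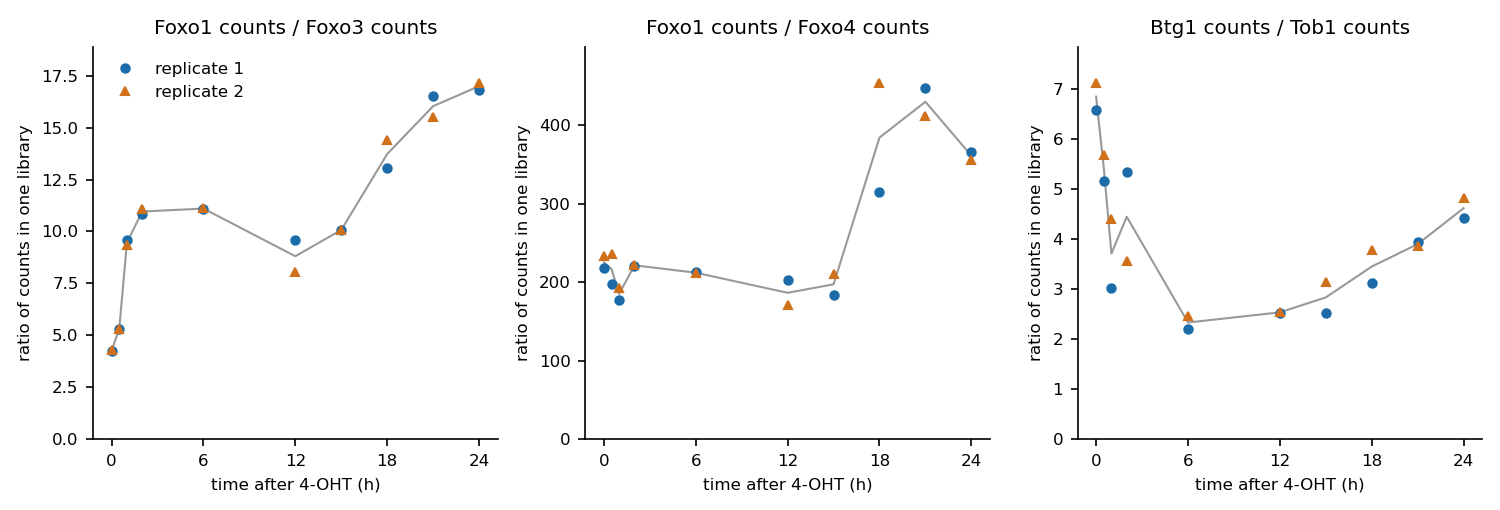
Ratio of raw counts of 2 genes in the same library (vertical axis, from 0) against hours after 4-OHT (horizontal axis) for Foxo1 over Foxo3, Foxo1 over Foxo4 and Btg1 over Tob1. Circles are replicate 1, triangles replicate 2 and lines join their means. The Foxo1 to Foxo3 ratio goes from 4.23 and 4.29 at 0 h to 16.8 and 17.2 at 24 h.

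Foxo4, the remaining FOXO factor measured, was present at a far lower level and reached the midpoint of its change earlier than Foxo1. It lies at chrX:101254528-101260873 on the plus strand. Foxo4 stood at 5.03/4.71 CPM at 0 h, 5.58/4.75 at 30 min, 8.34/7.71 at 1 h, 8.01/7.98 at 2 h, 12.1/12.2 at 6 h, 15.0/16.0 at 12 h, 20.3/18.0 at 15 h, 16.5/12.3 at 18 h, 15.8/16.5 at 21 h, 19.8/20.5 at 24 h. From 1 h on, every library lay above those at 0 h. The log2 fold change was 0.72 at 1 h (adjusted p = 4.35e-05), 1.32 at 6 h (adjusted p = 1.82e-09) and 2.05 ± 0.112 (SE) at 24 h (adjusted p = 2.34e-13, 4.13-fold). The midpoint came at 6.60 and 6.65 h in the replicates. Between 15 and 18 h Foxo4 was lower (log2 fold change -0.40, adjusted p = 0.00226), but the 18 h libraries differed from each other and this call was lost without replicate 1 of 15 h or replicate 2 of 18 h. Foxo1 held 217 and 233 counts per Foxo4 count at 0 h. This ratio was 202 and 170 at 12 h and 184 and 211 at 15 h, then 314 and 454 in the 18 h libraries and 366 and 356 in those of 24 h. It lay between 170 and 236 in all libraries through 15 h and between 314 and 454 in all later ones.

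Of the KLF factors, Klf13 was transcribed at a moderate level and the others were near the limit of detection. Klf13, a zinc finger factor known for driving chemokine transcription in T cells, lies at chr7:63886351-63938915 on the minus strand. Klf13 stood at 82.7/83.4 CPM at 0 h, 101/99.4 at 30 min, 82.9/82.3 at 1 h, 75.6/74.5 at 2 h, 74.2/71.8 at 6 h, 69.8/77.3 at 12 h, 88.3/83.4 at 15 h, 80.4/68.2 at 18 h, 84.0/97.6 at 21 h, 110/114 at 24 h. Both libraries lay above those at 0 h at 30 min, 21 and 24 h and below them at 2, 6, 12 and 18 h, so that the profile held a brief peak at 30 min and a late rise. The 30 min difference (log2 fold change 0.27, adjusted p = 0.00748) was small and did not pass with any of the 4 libraries left out (lowest adjusted p 0.0486), with library totals as the scale (0.0147) or with a replicate block (0.0131). The return from 30 min to 1 h was -0.28 (adjusted p = 0.00179). At 24 h Klf13 was 1.35-fold above 0 h (0.43, adjusted p = 4.97e-06), which fell to 0.17 (adjusted p = 0.0429) when only library totals were used for scaling.

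Klf2, the factor best known for keeping naive T and B cells at rest, was barely transcribed. Its gene lies at chr8:72319033-72321656 on the plus strand and drew 6 to 23 counts in each library. Klf2 stood at 0.454/0.180 CPM at 0 h, 0.313/0.208 at 2 h, 0.388/0.434 at 24 h, with 0.172 CPM at 6 h as the lowest value and 0.513 CPM at 30 min as the highest. The 0 h libraries were themselves 21 and 8 counts, and at each of the 9 induced time points the libraries overlapped with them. No comparison passed, nor did the test of all time points together (adjusted p = 0.227), whereas 88% of all genes passed that test. The log2 fold change at 24 h was 0.36 with a SE of 0.411, and no difference was detectable at this depth. Klf3, a repressor of the same family at chr5:64803388-64832901 on the plus strand, had 0 counts in 10 of the 20 libraries. Its counts were 0/0 at 0 h, 0/6 at 12 h, 2/6 at 18 h, 4/3 at 21 h, and 2/5 at 24 h, and no other library had more than 2. A count of 0 allows up to 3 counts, or 0.0648 and 0.0676 CPM in the 0 h libraries. Only 7.96% of the Klf3 gene body is shared with other annotated genes.

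The BTG and TOB genes, whose short bodies are mostly exon, all rose by 24 h, Tob1 before Btg1. Tob1 lies at chr11:94211454-94215495 on the plus strand and stood at 1.06/0.878 CPM at 0 h, 1.33/1.29 at 30 min, 2.23/1.74 at 1 h, 1.57/2.15 at 2 h, 5.14/4.38 at 6 h, 4.63/3.96 at 12 h, 5.56/4.76 at 15 h, 5.69/5.30 at 18 h, 5.50/5.46 at 21 h, 5.13/4.86 at 24 h. All libraries after 0 h lay above both 0 h libraries, and from 6 h on none lay below 3.96 CPM. The log2 fold change was 1.05 ± 0.197 (SE) at 1 h (adjusted p = 0.000147), 0.95 at 2 h (adjusted p = 0.000411), 2.29 at 6 h (adjusted p = 8.42e-11) and 2.36 at 24 h (adjusted p = 3.09e-11, 5.13-fold). The step from 2 to 6 h was 1.34 (2.53-fold, adjusted p = 2.38e-07), and no later step passed. The midpoint of its 24 h change fell at 3.71 and 3.29 h. The 1 h fold dropped under 2 without replicate 2 of 0 h or replicate 1 of 1 h, and Tob1 did not pass at 2 h without replicate 2 of 2 h (log2 fold change 0.69, adjusted p = 0.0259).

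Btg1, the BTG or TOB gene with the highest level per kb, rose late. It lies at chr10:96617006-96622809 on the plus strand and stood at 6.96/6.26 CPM at 0 h, 6.85/7.35 at 30 min, 6.77/7.67 at 1 h, 8.35/7.66 at 2 h, 11.3/10.8 at 6 h, 11.7/10.1 at 12 h, 14.1/14.9 at 15 h, 17.7/20.1 at 18 h, 21.6/21.1 at 21 h, 22.6/23.4 at 24 h. The libraries overlapped with those at 0 h at 30 min and 1 h and lay above them from 2 h on. The log2 fold change was 0.27 at 2 h (adjusted p = 0.0213), 0.74 at 6 h (adjusted p = 4.06e-07) and 1.80 ± 0.087 (SE) at 24 h (adjusted p = 2.73e-14, 3.48-fold). The steps that passed were 0.47 from 2 to 6 h, 0.42 from 12 to 15 h and 0.38 from 15 to 18 h. Its midpoint was at 15.6 and 14.9 h. Btg1 held 6.57 and 7.13 counts per Tob1 count at 0 h, 2.20/2.46 at 6 h, and 4.41/4.82 at 24 h, so that the earlier rise of Tob1 was followed by that of Btg1.

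Btg2, a p53-responsive relative of Btg1, started near the limit of detection, with 10 and 8 counts at 0 h. It lies at chr1:134075170-134079120 on the minus strand and stood at 0.216/0.180 CPM at 0 h, 0.190/0.290 at 30 min, 0.248/0.418 at 1 h, 0.470/0.231 at 2 h, 0.560/0.647 at 6 h, 0.661/0.897 at 12 h, 0.824/0.922 at 15 h, 1.15/1.24 at 18 h, 1.46/1.44 at 21 h, 1.52/1.25 at 24 h. From 1 h on, both libraries lay above both 0 h libraries. The log2 fold change did not pass at 1 h (0.71, SE 0.41) or 2 h (0.78, SE 0.413), and was 1.59 at 6 h (adjusted p = 0.000486) and 2.78 ± 0.307 (SE) at 24 h (adjusted p = 3.78e-08, 6.86-fold). No single step between neighbouring time points passed, and the midpoint differed between the replicates (15.4 and 7.62 h), so its timing was not resolved at this depth.

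Rbl2, which encodes p130, rose early, was highest at 12 h and was still above 0 h at 24 h. It lies at chr8:91070057-91123844 on the plus strand and stood at 44.5/44.6 CPM at 0 h, 47.7/51.1 at 30 min, 61.7/60.5 at 1 h, 64.7/61.1 at 2 h, 60.5/59.6 at 6 h, 71.1/69.5 at 12 h, 67.5/66.2 at 15 h, 63.4/65.4 at 18 h, 62.4/62.9 at 21 h, 57.7/60.6 at 24 h. Every induced library lay above the 0 h libraries. The log2 fold change was 0.15 at 30 min (adjusted p = 0.0313), 0.46 at 1 h (adjusted p = 3.07e-08), 0.50 at 2 h (adjusted p = 5.42e-09), 0.66 at 12 h (adjusted p = 3.15e-11) and 0.41 ± 0.0461 (SE) at 24 h (adjusted p = 5.07e-08). The steps that passed were 0.31 from 30 min to 1 h and 0.23 from 6 to 12 h. From 2 to 24 h the difference was -0.09 (adjusted p = 0.0868), or -0.36 (adjusted p = 2.73e-07) when only library totals were used for scaling. Rbl2 shares 22.4% of its body with antisense genes, mainly Aktip, which drew 296 to 624 counts against at least 1761 for Rbl2.

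Seen by step, the movements were spread over the whole day. From 30 min to 1 h, Foxo1, Foxo4 and Rbl2 rose and Foxo3 and Klf13 fell, beside 16.3% higher and 15.7% lower among all genes tested. From 1 to 2 h only Foxo1 passed (0.26, beside 9.07%). Between 2 and 6 h, 5 of the 9 rose (Foxo1, Foxo3, Foxo4, Btg1 and Tob1), beside 19.6%. This step and that from 30 min to 1 h each moved 5 of the 9. Between 6 and 12 h, 4 rose (Foxo1, Foxo3, Foxo4 and Rbl2), beside 14%, and between 12 and 15 h 3 rose (Foxo1, Foxo3 and Btg1), beside 9.58%. Between 15 and 18 h, 2 rose (Foxo1 and Btg1), beside 13%, and Foxo4 was lower, beside 16.1%. Between 18 and 21 h, 3 rose (Foxo1, Foxo3 and Klf13), beside 7.1%, and between 21 and 24 h only Klf13 rose (0.30, beside 4.06%). With 1 library left out, the count that rose was 2 for 6 to 12 h (without either 6 h library or replicate 1 of 12 h), 1 for 15 to 18 h (without replicate 1 of 15 h or replicate 2 of 18 h), 1 for 18 to 21 h (without replicate 2 of 18 h or of 21 h) and 0 for 21 to 24 h (without replicate 1 of 21 h or either 24 h library), and the count that fell from 30 min to 1 h was 1 whichever of its 4 libraries was left out. From 2 to 24 h, 7 of 9 passed as higher, beside 33.5%, and 6 were called higher, beside 16.2%, with Foxo3 joining the 5 called against 0 h.

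Levels between genes were compared per kb of gene body. Exon made up 10.2% of the body of Foxo1 and 90.9% of that of Btg1, and reads over exons and introns were not separated. The order therefore compares unlike mixes of exon and intron and is approximate. At 0 h Foxo1 led with 12.9 CPM per kb, followed by Foxo3 (2.71), Klf13 (1.58), Btg1 (1.14), Rbl2 (0.828), Foxo4 (0.767), Tob1 (0.240), Klf2 (0.121), Btg2 (0.0501) and Klf3 at 0. The gap between Klf2 and Btg2 was smaller than the sum of their SDs, and the other neighbours differed by more. At 24 h the order was Foxo1 (85.6 CPM per kb), Foxo3 (4.50), Btg1 (3.97), Foxo4 (3.17), Klf13 (2.13), Tob1 (1.24), Rbl2 (1.10), Btg2 (0.350), Klf2 (0.157) and Klf3 (0.00331), with every gap larger than the sum of the SDs. Btg1, Foxo4 and Tob1 moved up in the order, and Klf13 and Rbl2 moved down. The lead of Foxo1 over the next gene widened from 10.2 to 81.1 CPM per kb.

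**Figure D4:**
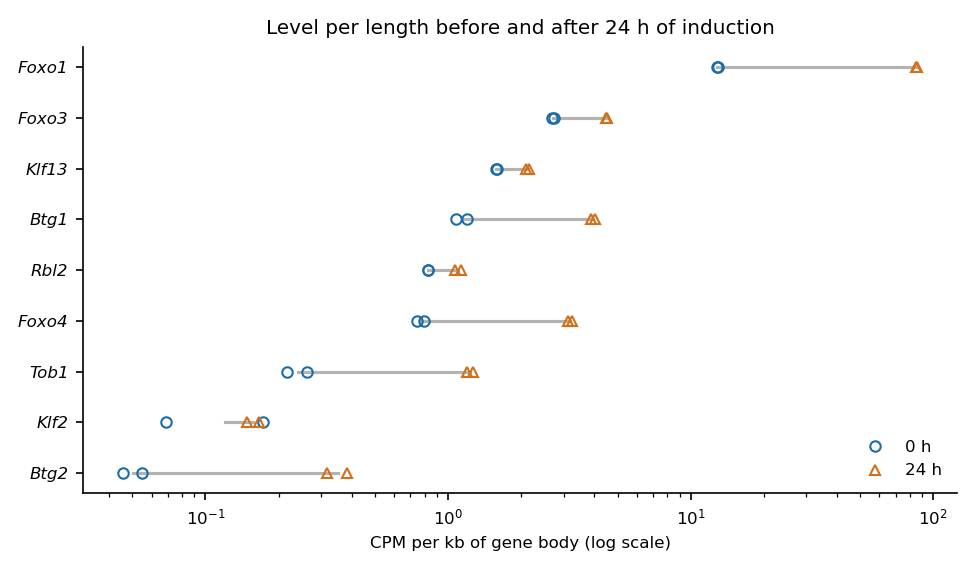
CPM per kb of gene body (horizontal axis, log scale) for 9 of the genes, in order of their 0 h level, with circles for the 2 libraries at 0 h and triangles for the 2 at 24 h, and a grey line between the means. Klf3 is left out because it was at 0 counts at 0 h. Foxo1 lies at 12.9 before and 85.6 after induction, far to the right of the others.

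The profile nearest to each of the 5 genes that changed over the time course was sought among 12043 genes averaging at least 1 CPM (12044 for Btg2), as the smallest root mean square (RMS) difference of the 9 log2 fold changes. It was Klhl24 for Foxo1 (RMS 0.110), with log2 fold changes of 0.58 at 2 h, 1.14 at 6 h and 2.56 at 24 h. It was Serinc2 for Foxo4 (RMS 0.162), Selenot for Btg1 (RMS 0.0548), Arhgap25 for Btg2 (RMS 0.112) and Neu1 for Tob1 (RMS 0.168). Among the members themselves the closest pairs were Klf2 and Klf13 (RMS 0.290), Foxo1 and Btg2 (0.307) and Btg2 and Tob1 (0.342). Each of these pairs holds Klf2 or Btg2, whose few counts gave SEs of 0.411 and 0.307 at 24 h. Distances of this size are therefore not resolved from their errors. All of these distances are descriptions over 9 contrasts that share the 0 h libraries.

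The promoters of the members were read for 3 short motifs on both strands: the forkhead letters GTAAACA or TGTTTAC, the core bound by Ikaros (GGGAA or TTCCC) and the KLF core (CACCC or GGGTG). RefSeq promoters of 300 bases (GRCm38.p6, 250 before and 50 after the start) were at hand for 9 of the 10 genes, Foxo4 being the exception. The forkhead letters occurred in 1 of the 9, Btg1, and in 3.65% of 32851 promoters. The Ikaros core occurred in 5 of 9 (Foxo1, Foxo3, Btg2, Klf3 and Rbl2) and in 62.7% of all, and the KLF core in 5 of 9 (Klf2, Klf3, Klf13, Tob1 and Rbl2) and in 57.5% of all, so that neither share stood above the background. A match says only that the letters are there. The stretches just upstream of the start are shown for the 4 genes called higher at 24 h that have an entry, with capitals for any of the 3 motifs.
Foxo1 (chr3:52268087-52268335, plus strand): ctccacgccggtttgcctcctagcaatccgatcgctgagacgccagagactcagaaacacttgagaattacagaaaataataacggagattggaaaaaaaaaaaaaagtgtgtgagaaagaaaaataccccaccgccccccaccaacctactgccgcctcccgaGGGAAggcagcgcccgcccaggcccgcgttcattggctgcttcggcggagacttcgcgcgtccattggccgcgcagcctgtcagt
Btg1 (chr10:96616751-96617000, plus strand): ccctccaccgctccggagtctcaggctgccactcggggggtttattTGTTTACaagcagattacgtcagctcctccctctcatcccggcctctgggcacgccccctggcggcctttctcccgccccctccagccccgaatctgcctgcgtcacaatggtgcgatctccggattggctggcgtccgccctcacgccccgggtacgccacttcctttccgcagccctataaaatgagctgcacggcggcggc
Btg2 (chr1:134079156-134079405, minus strand): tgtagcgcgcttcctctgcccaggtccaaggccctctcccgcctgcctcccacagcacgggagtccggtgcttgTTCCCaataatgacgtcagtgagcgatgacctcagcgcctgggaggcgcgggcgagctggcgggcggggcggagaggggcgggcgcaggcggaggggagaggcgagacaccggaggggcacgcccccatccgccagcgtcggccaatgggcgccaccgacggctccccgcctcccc
Tob1 (chr11:94211204-94211453, plus strand): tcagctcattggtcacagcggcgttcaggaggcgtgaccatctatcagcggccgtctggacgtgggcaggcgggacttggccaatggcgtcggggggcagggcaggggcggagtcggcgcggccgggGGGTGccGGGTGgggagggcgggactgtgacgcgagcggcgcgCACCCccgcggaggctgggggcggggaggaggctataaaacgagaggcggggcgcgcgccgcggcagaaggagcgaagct
In these stretches Foxo1 and Btg2 hold 1 Ikaros core each, Btg1 holds the forkhead letters and no Ikaros core, and Tob1 holds 3 KLF cores.

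Most of the tested genes listed here as activated by FOXO factors were higher by 24 h, as Foxo1 was. Of 21 such genes 16 could be tested, and at 24 h 14 passed as higher and 10 were called higher, beside the 35.4% and 20% of all genes. In the other direction 1 (Sod2, -0.97) passed as lower, beside 36.1%. The median log2 fold change of the list was 1.89 against -0.01 for all genes. At 2 h, 11 passed as higher, beside 23.9% of all genes, and 1 (Gabarapl1, -0.41) as lower, beside 23.8%. At that time 3 (S1pr1, Cited2 and Bnip3) were called higher, beside 6.25%, and the median was 0.33. The 3 with the largest change were S1pr1, the receptor that lets lymphocytes leave tissues, which went from 3 and 4 counts at 0 h to 152 and 155 by 24 h (log2 fold change 5.77, adjusted p = 9.24e-13), Cited2, a transcriptional coregulator (4.52, adjusted p = 1.06e-19), and Ccng2, an atypical cyclin that slows cycling (3.25, adjusted p = 1.78e-20). Ccr7 had at most 6 counts in any library. Rag1, Rag2 and Irs2 were at 0 counts in all 20 libraries. Rag1 and Rag2 lie wholly inside another annotated gene, and whether reads that 2 genes share were counted is not stated, so their 0 is no measure of transcription.

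Genes of the PI3K-AKT route upstream of FOXO passed in both directions. Of 17 tested out of 18, 8 passed as higher and 5 as lower at 24 h, beside 35.4% and 36.1% of all genes, with 2 and 3 called, beside 20% and 20.1%, and a median of 0.13. At 2 h, 3 passed as higher (Pik3ca, Pdpk1 and Rictor) and 9 as lower, beside 23.9% and 23.8%, with a median of -0.20. Pik3ap1, the BCAP adaptor that recruits PI3K in B cells, fell (-1.96, adjusted p = 1.13e-20), as did Inpp5d, which encodes SHIP1, a phosphatase that acts against PI3K (-1.59, adjusted p = 5.45e-17).

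Relatives of the 10 genes passed in both directions as well. Of the 15 other FOXO and KLF family genes 8 could be tested, and at 24 h 3 passed as higher (Klf6, Klf7 and Klf9) and 2 as lower (Klf10 and Klf16), beside 35.4% and 36.1%, with a median of 0.27. Klf6 rose (2.96, adjusted p = 9.06e-17), already by 1.07 at 2 h, and Klf7 fell by 0.50 on the log2 scale at 2 h before it was higher at 24 h (1.02, adjusted p = 2.52e-13, under 2-fold when only library totals were used for scaling). Of the BTG and TOB relatives and CCR4-NOT subunits, 12 of 13 were tested and 5 passed as higher (Tob2, Cnot2, Cnot6l, Cnot7 and Cnot8) and 5 as lower (Btg4, Cnot1, Cnot3, Cnot6 and Cnot10) at 24 h, beside the same 35.4% and 36.1%, with a median of 0.04. Btg3, another antiproliferative gene of the family, rose at 2 h (1.44, adjusted p = 2.64e-12) and was back at 24 h (0.01, adjusted p = 0.941), Btg4 fell (-3.37, adjusted p = 5.98e-09, from 67 and 69 counts to 6 and 4), and Cnot6l, a deadenylase subunit, rose (1.17, adjusted p = 1.99e-14, under 2-fold with library totals only). Cnot9 was at 0 counts and also lies wholly inside another gene, and antisense genes cover 60.9% of Btg3, 63.3% of Btg4, 75.2% of Cnot2 and 93.5% of Cnot7, whose counts are uncertain for that reason.

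Partners of Rbl2 passed in both directions. Of 12 pocket protein and DREAM genes 3 passed as higher (Rb1, Tfdp2 and Lin37) and 8 as lower at 24 h, beside 35.4% and 36.1% of all genes, with a median of -0.25. At 2 h, 5 passed as higher (Rb1, Tfdp2, Lin9, Lin52 and Rbbp4) and 2 as lower (E2f4 and Tfdp1), beside 23.9% and 23.8%. Tfdp1, the dimer partner of E2F factors, fell (-2.60, adjusted p = 4.9e-23), as did the DREAM subunit Lin54 (-1.76, adjusted p = 3.15e-19), and Rb1 rose (1.45, adjusted p = 1.04e-18). Rbl1, the paralog of Rbl2 that encodes p107 and was named after its values were seen, fell by 1.37 on the log2 scale (adjusted p = 4.72e-19), opposite to Rbl2. Of 6 other regulators of lymphocyte quiescence 5 were tested. At 2 h, 4 passed as higher (Foxp1, Slfn2, Tsc1 and Tsc2), beside 23.9% of all genes, and Runx1 fell (-1.27, adjusted p = 1.05e-14). At 24 h Slfn2 (2.65, adjusted p = 1.67e-11) and Foxp1 (1.67, adjusted p = 7.65e-22) were higher, Runx1 was still lower (-0.61, adjusted p = 5.15e-10) and Tsc1 and Tsc2 did not pass. Other annotated genes cover 88.5% of Slfn2 and 44.4% of Foxp1, so their counts are uncertain.

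Proliferation genes fell. All 12 were called lower at 24 h, beside 20.1% of all genes, with a median of -1.92, and at 2 h 6 passed as lower and 2 (Top2a and Bub1) as higher, beside 23.8% and 23.9%. The largest changes were those of the replication helicase subunits Mcm2 (-3.05, adjusted p = 2.16e-20) and Mcm5 (-2.73, adjusted p = 1.05e-22) and of the mitotic kinase Cdk1 (-2.52, adjusted p = 6.97e-22). The part of the fall in cycling cells in the rise of Foxo1, Btg1, Btg2 and Tob1 was not tested.

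**Figure D5:**
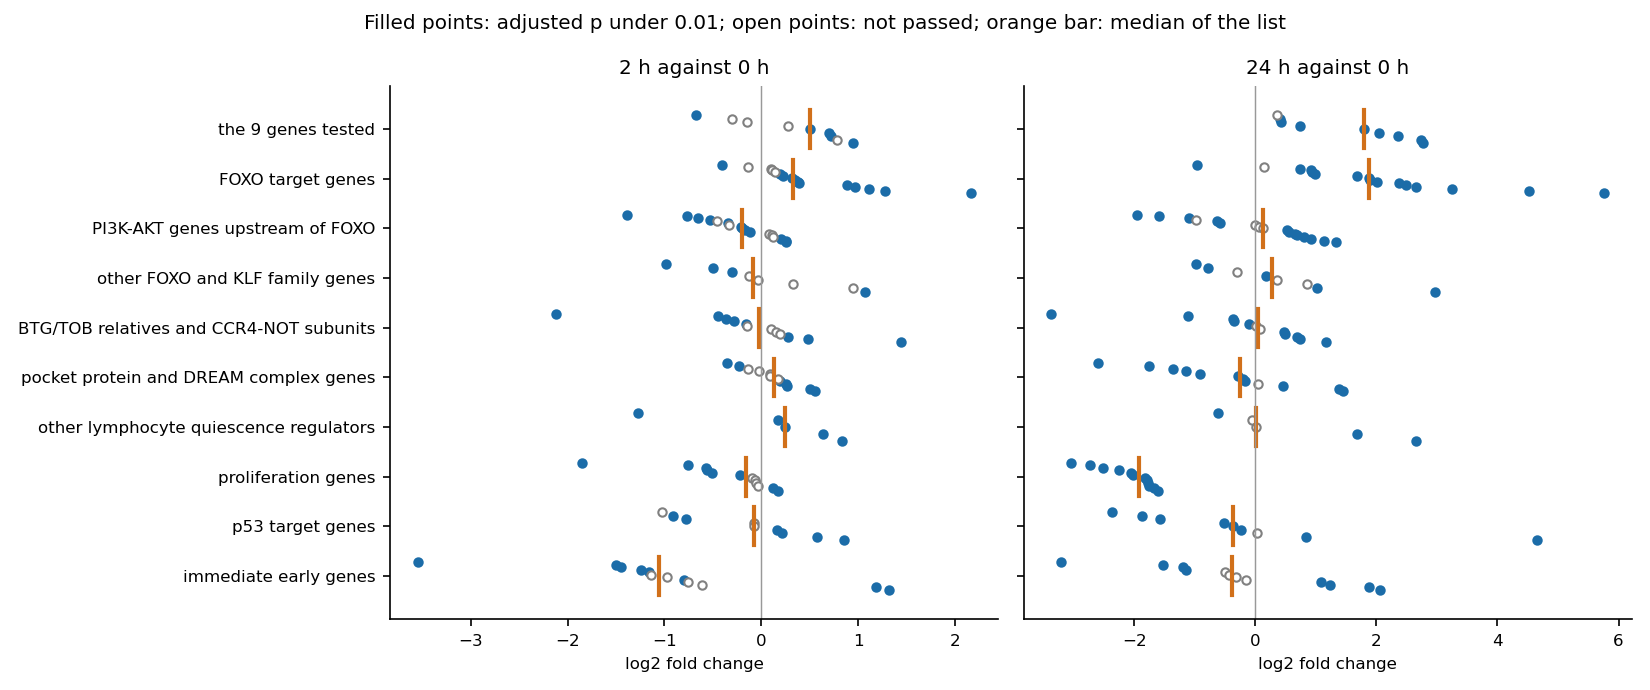
log2 fold change against 0 h (horizontal axis) of each gene tested in the 9 lists of related genes and of the 9 members (rows), at 2 h (left) and 24 h (right). Filled points passed at an adjusted p under 0.01, open points did not, and the orange bar is the median of the row. Eda2r, at 0 counts at 24 h, is drawn at its bound. At 24 h the FOXO targets have a median of 1.89 and the proliferation genes one of -1.92.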

How the data were processed

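Chromatin-associated RNA was analysed in all 20 libraries. The authors aligned reads to mm10 (GRCm38) with STAR through nf-core/rnaseq, took gene counts with featureCounts over exons and introns, and deposited these raw counts unnormalized. CASAVA 2.17 is named in the submitters' processing notes. The annotation release, the strand setting and the handling of shared reads are not given in the sources used here. Groups came from the sample titles.

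The 16601 genes that reached 10 counts in 2 or more libraries were tested with edgeR 4.0.16 (TMM, quasi-likelihood test, with time as a factor of 10 levels over all 20 libraries) in R 4.3.3, with Benjamini-Hochberg adjustment over all of them. Passed means an adjusted p under 0.01, and called adds a fold change above 2. Whether the libraries of a time point came from separate cultures is not stated, so p-values measure only the spread between these libraries. The test shares its estimate of spread over all time points. Libraries differed more at 12, 18, 21 and 24 h, so p-values of comparisons with those times may be too small. Intervals and floors (3 counts for a count of 0) cover counting error only. Positions and overlaps came from GENCODE M21, which holds 55240 of the 56239 identifiers. The steps were tested on simulated counts.

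The members, lists and tests were chosen with earlier results of these data known. Named were all 10 members, up to 3 genes of each list with the largest change among those called at 2 or 24 h, and the gene with the nearest profile. Other genes were named after their values were seen. Values of some genes of the lists are not reported here. Alternatives were DESeq2 size factors, library totals only, no filter, the DESeq2 1.42.0 test, a replicate block, an adjusted p under 0.05, leaving out each library, and promoters without the 50 bases after the start. Same-numbered libraries did not deviate together on average, although in single pairs of time points the correlation ran from -0.678 to 0.477.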

Additional observations from a re-analysis of the deposited data

How the results depend on the processing

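Of the 37 counts of members, all stayed within 1.5 times under DESeq2 size factors, the DESeq2 test and the replicate block. The replicate numbers did not pair the libraries in a uniform way. Over 7876 genes, libraries with the same number gave a mean correlation of 0.0304 in 45 pairs of time points (-0.678 to 0.477, 18 above 0.1). Deviations shared by some time points are therefore not excluded. The block moved 1 of 54 gene values across the threshold, that of Klf13 at 30 min (0.27). With library totals only, the median of all genes fell by 0.26 on the log2 scale at 24 h, 0.23 at 21 h and 0.12 at 18 h, and 2603 genes were called higher and 4260 lower at 24 h. Members lower between 15 and 18 h then numbered 2, members higher between 18 and 21 h 1, members higher between 21 and 24 h 0, and members lower between 2 and 24 h 1 (Rbl2). At 24 h the lists then gave 1 other FOXO or KLF gene called higher (2 under TMM) and 2 lower (0), 1 FOXO target lower (0), 1 PI3K-AKT gene higher (2), 0 BTG or CCR4-NOT genes higher (1) and 2 immediate early genes higher (4). Without the filter, and equally at an adjusted p under 0.05, 5 members were higher between 12 and 15 h, 2 lower between 15 and 18 h and 2 higher between 21 and 24 h. Klf13 at 6 h passed under DESeq2 size factors, the DESeq2 test and no filter (-0.21, -0.21 and -0.22).

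Leaving out each library in turn left 143 of 164 counts within 1.5 times. Members called higher ranged from 0 to 1 at 1 h and from 0 to 1 at 2 h. Members lower from 30 min to 1 h were 1 to 1. Members higher were 2 to 3 from 6 to 12 h, 1 to 2 from 15 to 18 h, 1 to 4 from 18 to 21 h and 0 to 1 from 21 to 24 h, and members lower from 15 to 18 h were 0 to 2. The sign turned for differences that never passed: Foxo4 at 30 min (-0.0374 to 0.20), Btg2 at 30 min (-0.0648 to 0.54), and Klf2 at 1 h (-1.01 to 0.31), 2 h (-0.81 to 0.51), 6 h (-1.16 to 0.16) and 24 h (-0.14 to 1.18), where leaving out replicate 1 of 0 h turned the first 3 and replicate 2 of 0 h the last. The cause was not tested. With 2 libraries at each time point, the fits without one assume that the lone library varies like the others. Few counts limit Klf2, Klf3 and Btg2.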

Other observations

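Genes that p53 is known to activate were also measured. Of 12, 9 were tested, and at 24 h 2 passed as higher (Trp53inp1 and Mdm2) and 6 as lower, beside 35.4% and 36.1% of all genes, with 1 (Trp53inp1) and 3 (Eda2r, Cdkn1a and Sesn2) called, beside 20% and 20.1%, and a median log2 fold change of -0.36. Cdkn1a, which encodes the cell cycle inhibitor p21, was higher at 2 h (0.57, adjusted p = 6.94e-07 by edgeR) and lower at 24 h (-2.37, adjusted p = 4.79e-15). Cdkn1b (p27) went the other way and was higher at 24 h (2.49, adjusted p = 3.77e-19). The FOXO target list used here held Cdkn1b and not Cdkn1a, which says nothing on whether FOXO factors act on Cdkn1a. Trp53inp1, a p53-induced nuclear protein gene, rose most (4.65, adjusted p = 1.09e-21, from 22.1 to 554 CPM). Eda2r had 12 and 11 counts at 0 h and 0 in both libraries at 24 h, at least 2.97-fold lower against 3 counts per library. Cdkn1b was named after its values were seen.

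Immediate early genes, which respond within minutes to growth signals and handling, passed in both directions. At 2 h, 2 of 12 passed as higher (Dusp1 and Zfp36) and 6 as lower, beside 23.9% and 23.8%, with a median of -1.06, and at 24 h 4 passed as higher (Jun, Junb, Dusp1 and Zfp36) and 4 as lower (Egr2, Ier2, Atf3 and Nr4a1), beside 35.4% and 36.1%. Other annotated genes cover 36.7% of Zfp36 and 21.6% of Jun. Ier3 was lower at 2 h (-3.55, adjusted p = 2.27e-06) and did not pass at 24 h (-0.32). It had 20 and 22 counts at 0 h and a mean of 0.0377 CPM at 2 h. That mean lies under the floor of 3 counts (0.0783 and 0.0694 CPM in the 2 h libraries), so the size of the fall is uncertain. Atf3 was lower at 24 h (-3.21, adjusted p = 1.32e-14), and Zfp36, an mRNA decay factor, rose at 2 h (1.32, adjusted p = 5.75e-10) and was higher at 24 h (2.05, adjusted p = 2.96e-14).

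Among the genes of all lists, 4 lie at least 99% within the body of another annotated gene (Rag1, Rag2, Cnot9 and Itgam), and each of them was at 0 counts in all 20 libraries.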
